A study of Mus musculus with 8 samples.

Results

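Interferons are secreted antiviral proteins that act through receptors, JAK kinases and STAT transcription factors on a shared set of target genes. Stat2 acts in a complex with the DNA-binding protein Irf9 that binds a promoter element called ISRE, and interferon gamma acts through an element called GAS. Many cells keep some of these genes at a low level without added interferon. Described here are 9 interferon-induced genes, chosen by name and all found among the 55401 genes of the files: the immunity-related GTPase genes Irgm1, Irgm2 and Igtp, the transcription factor genes Stat2, Irf1, Irf7 and Irf9, and the antiviral effector genes Ifit1 and Isg15. The list was proposed with their levels over time known, so those levels are given as a description, with no test.

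The cells were mouse AtT-20 cells, a line of pituitary corticotropes, the cells that secrete the Pomc-derived hormone ACTH, carrying ER-Pax7, a tamoxifen-activated form of the pioneer transcription factor Pax7. RNA was sequenced after 0, 24, 48 and 72 h of tamoxifen, with n = 2 libraries at each time and 8 in all. The labels name no added interferon, and ER-Pax7 was present in every group, the 0 h group included. Effects of ER-Pax7, of tamoxifen and of hours in culture cannot be told apart, and nothing in the labels says that the replicates were separate cultures, so errors (SD, n = 2) may be technical.

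Values are the authors' normalized signal, read as mean read coverage per base of a gene's merged exons, so levels of different genes can be compared per length. The sources used here give no read depth. Summed signal was 164236 to 178548 per library, and 67.7% of all genes had a mean signal under 0.1. All 6 treated libraries correlated more, across genes, with a library of another time than with their own partner, as 24 h replicate 2 did with 48 h replicate 2 (r = 0.995, against 0.984 with its partner), and the 0 h libraries were nearest each other (r = 0.994). Pomc was at 499 to 679 and Tbx19, a corticotrope factor, at 16.3 to 23.2, while the receptor genes Crhr1 and Avpr1b, also corticotrope markers, were at most at 0.129 and 0.00253. Of 14 macrophage and lymphocyte markers, 11 had a mean under 0.1, with Cd3e and Ncr1 among those at 0 in every library. The summed level of these 14 was 0.728 at 0 h and 0.896 at 72 h (range 0.710 to 0.916), of which the highest gene, Csf1r, made up 0.446 to 0.563. At 72 h, 5 of the 14 had both libraries above both 0 h libraries and 1, Lyz2, had both below. Of all genes with a mean of at least 0.1, 25.7% were above and 21.9% below. As 11 of the 14 were under that mean, nothing is read from this count. The 5 were Csf1r, Cd68 (0.0652 and 0.0780 at 0 h, 0.133 and 0.166 at 72 h), the receptor gene Fcgr3 (0.0239 and 0.0173, then 0.0693 and 0.0483), Tyrobp (0.000267 and 0, then 0.0104 and 0.0362) and Itgam (0 and 0, then 0.0101 and 0.00285). Of the exonic bases of Itgam, 68.7% lie inside exons of Gm49368. For Csf1r, 15.1% lie inside exons of Hmgxb3, on the opposite strand. Cd68, Fcgr3 and Tyrobp share no exonic base with another gene. Ptprc, which marks all leukocytes, was at most at 0.0129. The part of such cells in the results was not tested, and in bulk RNA fewer cells of a type and less RNA per cell cannot be told apart.

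The 9 genes differed widely in level, with Irf1 the highest and Ifit1 the lowest. At 0 h the order was Irf1 (2.63 ± 0.192), Stat2 (1.79 ± 0.0701), Irf7 (0.730 ± 0.0520), Irgm2 (0.729 ± 0.0776), Igtp (0.535 ± 0.00887), Irf9 (0.517 ± 0.0279), Irgm1 (0.514 ± 0.0401), Isg15 (0.346 ± 0.00530) and Ifit1 (0.00299 ± 0.000628). The libraries of Irf7 and Irgm2 overlapped, as did those of Igtp and Irf9 and those of Irf9 and Irgm1; the other neighbours in that order did not. Irf1 lay above 92.2% of all genes by its mean over the 8 libraries, Isg15 above 75.7% and Ifit1 above 45.1%. In that mean 3 members reached a signal of 1 (Irf1, Stat2 and Irgm2) and 8 reached 0.1, all but Ifit1. Irgm2 reached 1 only through its treated libraries. At 72 h the first 3 were Irf1, Stat2 and Irgm2, none overlapping the next, and Irf7, at 1.01 ± 0.101, overlapped Irf9.

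**Figure D1:**
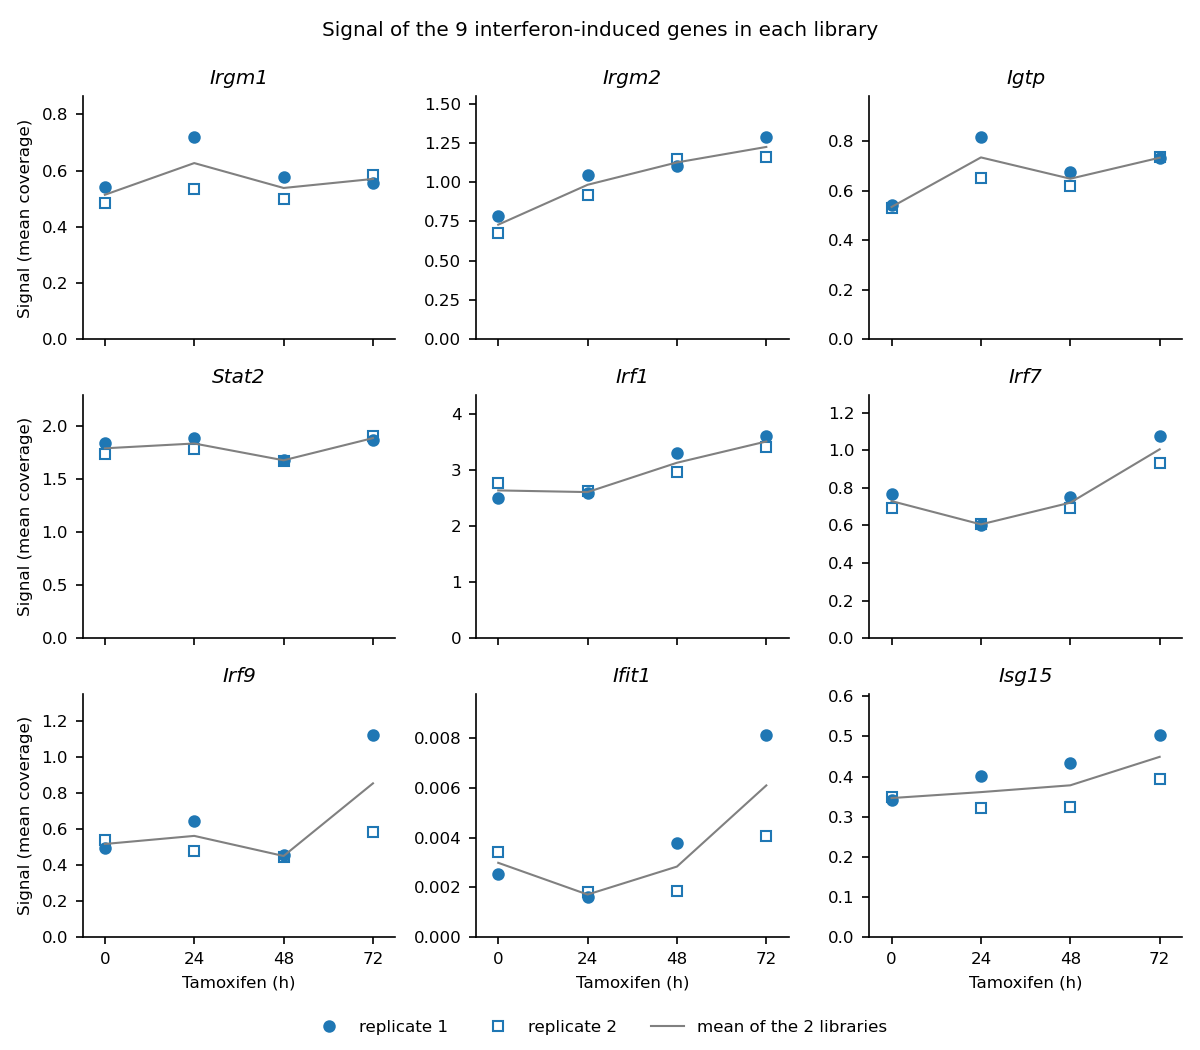
Signal (mean coverage, linear axes from 0, scaled for each gene) of the 9 genes against hours of tamoxifen; filled circles are replicate 1, open squares replicate 2, and lines join the means of the 2 libraries. Irgm2 has a higher mean at each later time, Stat2 stays between 1.67 and 1.91, and the 72 h libraries of Irf9 lie apart, at 1.12 and 0.583.

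The immunity-related GTPases are described first. In mice these proteins help defend cells against vacuolar pathogens, and Irgm1, Irgm2 and Igtp (also called Irgm3) belong to the subfamily that regulates the other members. Irgm2 (ENSMUSG00000069874.7, GRCm38 chromosome 11, 58199618 to 58222782, plus strand) had signals of 0.784 and 0.675 at 0 h, 1.05 and 0.918 at 24 h, 1.10 and 1.15 at 48 h, and 1.29 and 1.16 at 72 h. Every treated library of Irgm2 lay above both 0 h libraries. The ratio of means to 0 h was 1.35, 1.54 and 1.68. On the log2(signal + 1) scale these were changes of 0.20, 0.30 and 0.36, each with SE 0.06, and this scale understates the change of a gene near a signal of 1.

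Igtp (ENSMUSG00000078853.8, chromosome 11, 58199556 to 58207591, plus strand) had 0.541 and 0.529 at 0 h, 0.818 and 0.652 at 24 h, 0.678 and 0.620 at 48 h, and 0.732 and 0.736 at 72 h. Its treated libraries also lay above both 0 h libraries at all 3 times, but its 24 h mean (0.735) was as high as its 72 h mean (0.734). The ratios were 1.37, 1.21 and 1.37. Igtp and Irgm2 overlap at their first exons. The 162 shared bases are 8.01% of the exonic bases of Igtp and 4.39% of those of Irgm2. Reads over these shared bases may count for both.

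Irgm1 (ENSMUSG00000046879.7, chromosome 11, 48861968 to 48871683, minus strand) shares no exonic base with another gene. It had 0.543 and 0.486 at 0 h, 0.720 and 0.534 at 24 h, 0.579 and 0.498 at 48 h, and 0.556 and 0.585 at 72 h. The 24 h and 48 h libraries overlapped the 0 h libraries, and both 72 h libraries lay just above them. The ratios were 1.22, 1.05 and 1.11. The highest value, 0.720, came from 24 h replicate 1, the library that also held the highest Igtp value.

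The promoters are shown for the elements through which interferon is known to act on these genes. The windows are RefSeq promoters of build GRCm38.p6, from 250 bases before to 50 after each annotated start, and all 9 genes matched, with 11 windows. Both strands were searched for an ISRE core (GAAA, any 2 bases, GAAA) and a GAS core (TTC, any 3 bases, GAA); a match is a description of letters and does not show a bound site. The ISRE core occurs in 3.44% and the GAS core in 8.30% of all 32851 windows, and both occur together in 0.454%. Counted by gene, the shares are 3.99%, 9.55% and 0.540% of the 27025 genes with a window. Among the 9 genes, 6 had an ISRE match (Irgm1, Irgm2, Igtp, Stat2, Ifit1 and Isg15) and 3 a GAS match (Irgm2, Igtp and Irf1), and Irf7 and Irf9 had neither in these windows. Both Irf9 windows lie inside the gene as the files give it, so the bases before its start there were not searched. Among the 124 genes of a wider interferon pathway list (described below) that have a window, 42 (33.9%) had an ISRE match and 28 (22.6%) a GAS match. The GTPase stretches are printed 5′ to 3′ on the gene's strand, with the matches in capitals.
Igtp, chr11:58199496-58199546, plus strand: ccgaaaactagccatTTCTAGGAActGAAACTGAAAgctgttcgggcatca
Irgm2, chr11:58214887-58214937, plus strand: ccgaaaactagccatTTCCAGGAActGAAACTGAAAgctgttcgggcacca
Irgm1, chr11:48871420-48871465, minus strand: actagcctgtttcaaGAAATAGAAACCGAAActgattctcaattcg
Igtp and Irgm2 carry a GAS core and an ISRE core separated by 2 bases, and their stretches are identical at 49 of 51 bases. A local alignment of their windows matched 244 of 270 aligned bases (90.4%), against 55 of 77 for Igtp and Irgm1. The Irgm2 window belongs to a RefSeq start inside the gene as the files give it, downstream of the exon shared with Igtp. Irgm1 has a pair of overlapping ISRE matches and no GAS match in its window. That window also lies inside the gene as the files give it, so the bases before its start there were not searched.

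**Figure D2:**
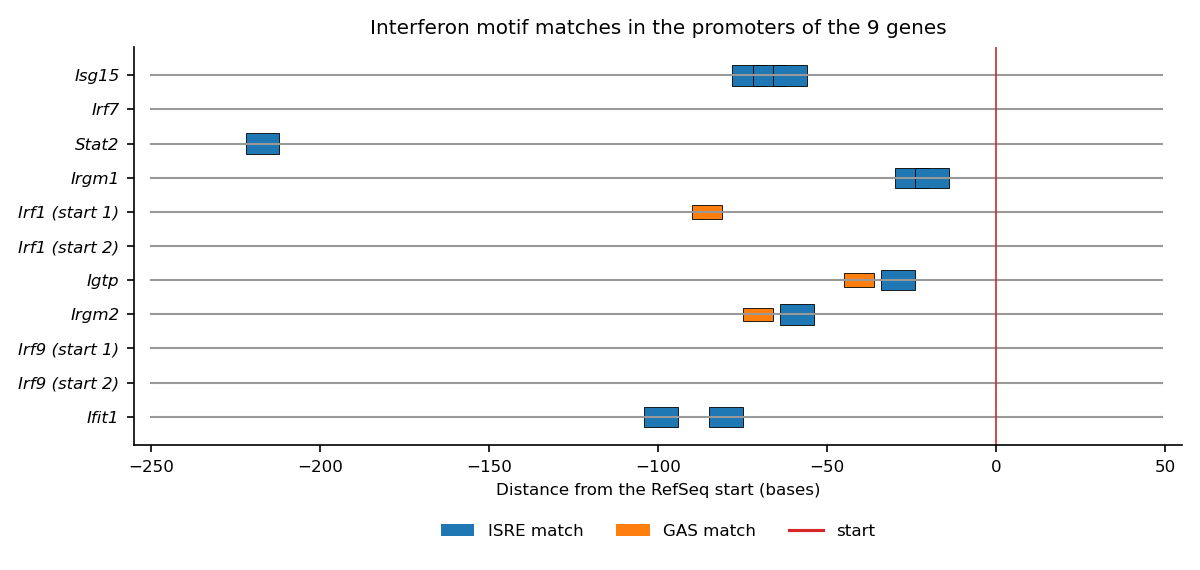
Positions of ISRE matches (blue) and GAS matches (orange) in the 11 RefSeq promoter windows of the 9 genes, in bases from the annotated start (red line, counted as 0); Irf1 and Irf9 have 2 windows each. Igtp and Irgm2 show the same order of a GAS match followed by an ISRE match, and the windows of Irf7 and Irf9 hold none.

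The transcription factors followed, in the order of their place in the pathway. Stat2 (ENSMUSG00000040033.16, chromosome 10, 128270559 to 128292849, plus strand), which carries the activation domain of the complex with Irf9, had 1.84 and 1.74 at 0 h, 1.89 and 1.78 at 24 h, 1.68 and 1.67 at 48 h, and 1.86 and 1.91 at 72 h. The 48 h libraries lay below and the 72 h libraries above those of 0 h, in both cases by less than the spread between the 0 h libraries. Its ratios were 1.03, 0.937 and 1.05, the narrowest range of the 9 genes.

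Irf9 (ENSMUSG00000002325.15, chromosome 14, 55603571 to 55610030, plus strand) had 0.497 and 0.537 at 0 h, 0.645 and 0.479 at 24 h, 0.455 and 0.446 at 48 h, and 1.12 and 0.583 at 72 h. Both 48 h libraries were below 0 h and both 72 h libraries above it. The 72 h ratio of 1.65 rested on replicate 1, which alone gave 2.17 against 1.13 for replicate 2. Of its exonic bases, 123 (2.28%) lie inside exons of Rnf31, whose signal was 0.616 and 0.892 before tamoxifen and 0.901 and 0.942 after 72 h. The part of Rnf31 in the value of 72 h replicate 1 was not tested.

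Irf1 (ENSMUSG00000018899.16, chromosome 11, 53770014 to 53778374, plus strand), a factor induced directly by interferon gamma, had 2.50 and 2.77 at 0 h, 2.59 and 2.62 at 24 h, 3.29 and 2.96 at 48 h, and 3.60 and 3.40 at 72 h. The 24 h libraries lay between those of 0 h, and the 48 h and 72 h libraries lay above them. The ratios were 0.989, 1.19 and 1.33, with log2(signal + 1) changes of -0.01, 0.18 and 0.31 (SE 0.06 each). Of its exonic bases, 796 (20.02%) lie inside exons of the antisense gene Gm17334, whose own signal was 0.265 and 0.205 before tamoxifen and 0.345 and 0.368 after 72 h. Whether counting used strand is not stated, so reads of Gm17334 may be part of the Irf1 signal. The first of the 2 Irf1 windows holds a GAS core, shown because interferon gamma is a known inducer of this gene, and Stat2 holds an ISRE core on the opposite strand.
Irf1, chr11:53769909-53769947, plus strand: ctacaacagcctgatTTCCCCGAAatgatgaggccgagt
Stat2, chr10:128270261-128270300, plus strand: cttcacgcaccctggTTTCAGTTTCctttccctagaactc

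Irf7 (ENSMUSG00000025498.15, chromosome 7, 141262706 to 141266481, minus strand), the main driver of alpha interferon genes, had 0.766 and 0.693 at 0 h, 0.601 and 0.610 at 24 h, 0.751 and 0.692 at 48 h, and 1.08 and 0.934 at 72 h. It lay below 0 h at 24 h, overlapped it at 48 h and lay above it at 72 h. The ratios were 0.830, 0.989 and 1.38. The merged exons of Irf7 form 1 block of 3776 bases that covers the whole gene, so its signal also takes in reads from introns. Phrf1, which shares 45 exonic bases with it, stayed between 4.22 and 4.53 in all libraries.

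The effectors were the lowest of the 9. Isg15 (ENSMUSG00000035692.7, chromosome 4, 156199455 to 156200796, minus strand), a ubiquitin-like protein that is joined to other proteins, had 0.343 and 0.350 at 0 h, 0.401 and 0.321 at 24 h, 0.433 and 0.324 at 48 h, and 0.504 and 0.394 at 72 h. Replicate 1 was above 0 h and replicate 2 below it at 24 h and at 48 h, and both were above it at 72 h. The ratios were 1.04, 1.09 and 1.30. Ifit1 (ENSMUSG00000034459.8, chromosome 19, 34640871 to 34650009, plus strand), which binds viral RNA that lacks cap methylation, had 0.00255 and 0.00343 at 0 h, 0.00160 and 0.00182 at 24 h, 0.00380 and 0.00187 at 48 h, and 0.00815 and 0.00406 at 72 h. No ratio is given for values this near 0. The promoters of both genes are shown because they hold 3 and 2 ISRE matches, while their levels were the lowest of the 9.
Isg15, chr4:156200860-156200911, minus strand: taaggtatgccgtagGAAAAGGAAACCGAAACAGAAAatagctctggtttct
Ifit1, chr19:34640770-34640828, plus strand: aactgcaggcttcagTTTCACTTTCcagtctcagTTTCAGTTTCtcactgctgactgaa
The 3 matches of Isg15 overlap each other, and the 2 of Ifit1 lie on the opposite strand.

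Each member was also set against its own 0 h libraries. At 24 h, Irgm2 and Igtp had both libraries above both 0 h libraries, and Irf7 and Ifit1 had both below. At 48 h, Irgm2, Igtp and Irf1 were above, and Stat2 and Irf9 below. At 72 h all 9 were above and 0 below, with Stat2 above by less than the spread between its 0 h libraries and Ifit1 near 0. At that time 5 of the 14 macrophage and lymphocyte markers were above as well, and 1 was below. Of 8 corticotrope markers, 5 were above (Pomc, Tbx19, Neurod1, Pcsk1 and Pitx1) and 1 below (Nr3c1). Of 7 fibroblast markers 0 were above and 2 below, and of 5 endothelial markers 0 were above and 0 below. Of genes with a mean of at least 0.1, the share above was 21.8%, 22.7% and 25.7% at the 3 times and the share below 18.8%, 21.5% and 21.9%; 8 members reached that mean, of which 2, 3 and 8 were above. These values were known when the list was made, so nothing is read from the counts.

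**Figure D3:**
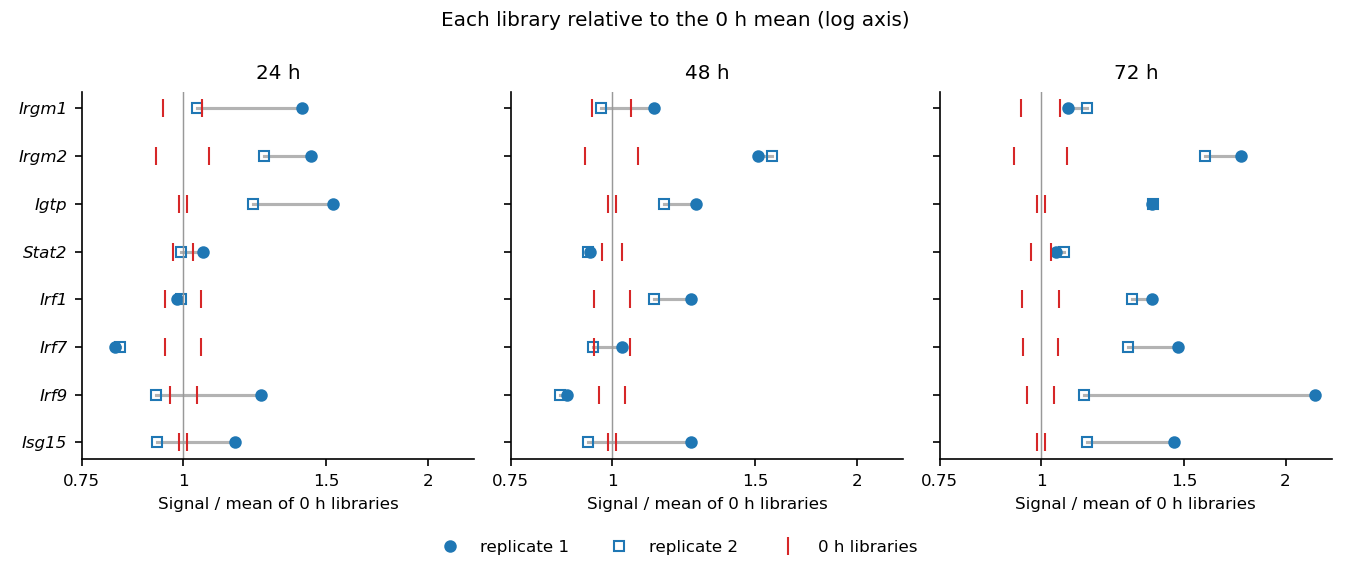
Signal of each treated library divided by the mean of the 0 h libraries (log axis) at 24, 48 and 72 h for 8 of the 9 genes, without Ifit1; filled circles are replicate 1, open squares replicate 2, grey bars join them and red ticks mark the 0 h libraries. At 72 h all points lie to the right of the red ticks, from 1.04 for Stat2 replicate 1 to 2.17 for Irf9 replicate 1.

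Over the 8 libraries the members fell into no single pattern. On the log2(signal + 0.1) scale Irgm1 and Igtp had r = 0.81 and Irgm2 and Igtp r = 0.78, but Irgm1 and Irgm2 only 0.37. Irf1 and Irf7 had r = 0.81 and Irf7 and Isg15 r = 0.69, while Stat2 and Irf1 had 0.02. These are descriptions over libraries that share their times and scaling, with no test. On the log2(signal + 1) scale, the tested genes most like Irgm2 over the 8 libraries were Lurap1l, Gstp-ps and Tspan15 (r = 0.98 each). Those most like Irf1 were Nupr1 (r = 0.97), Mir7004 (r = 0.96) and Pde4b (r = 0.95), and those most like Stat2 were Txn2 (r = 0.97), Rbm17 (r = 0.96) and Sdha (r = 0.95).

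The rest of the pathway was read from 167 listed names without the members, of which 163 matched a row. Interferon genes themselves were at or near 0: 12 of 15 were at 0 in every library, and the highest value of the other 3 was 0.0490. All 6 receptor genes gave a signal, with Ifngr2, a chain of the interferon gamma receptor, the highest at 6.46 over the 8 libraries, Ifnar1 at 2.03 and Ifnar2 at 2.21, and Ifnlr1, of the lambda receptor, at 0.0453. Jak1 was at 2.69 and Stat3, the highest of the kinase and STAT list, at 5.07. Of the 20 other GTPase genes 19 had a mean under 0.1. Of 11 guanylate-binding protein genes (Gbp), 4 were at 0 in all libraries and the highest value was 0.0342, and Irgq was the highest of the GTPase list at 1.03. Of the Ifit1 relatives, 2 of 5 were at 0 and the highest value was 0.0161.

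Of 61 other antiviral effectors, 22 had a mean under 0.1, 4 of them at 0 in every library, and 17 a mean of at least 1. Ifitm2, which hinders virus entry, was the highest at 17.1, though 40.9% of its exonic bases lie inside exons of Gm45717. Irf3 was the highest of the sensors and adaptors (2.88), Trim25 of the Isg15 conjugation genes (2.65), Irf2bp2 of the negative regulators (8.21) and Cd274 of the interferon gamma targets (0.932). Of the 42 wider genes with an ISRE match, 26 had a mean under 0.1 and 4 a mean of at least 1 (Irf2, Oas3, Ifitm2 and Shisa5), with a median of 0.0154; of the 82 with a window but no match, 27 were under 0.1 and 35 at 1 or more, with a median of 0.790. Genes of many kinds are on the list, and no test was made of this difference.

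**Figure D4:**
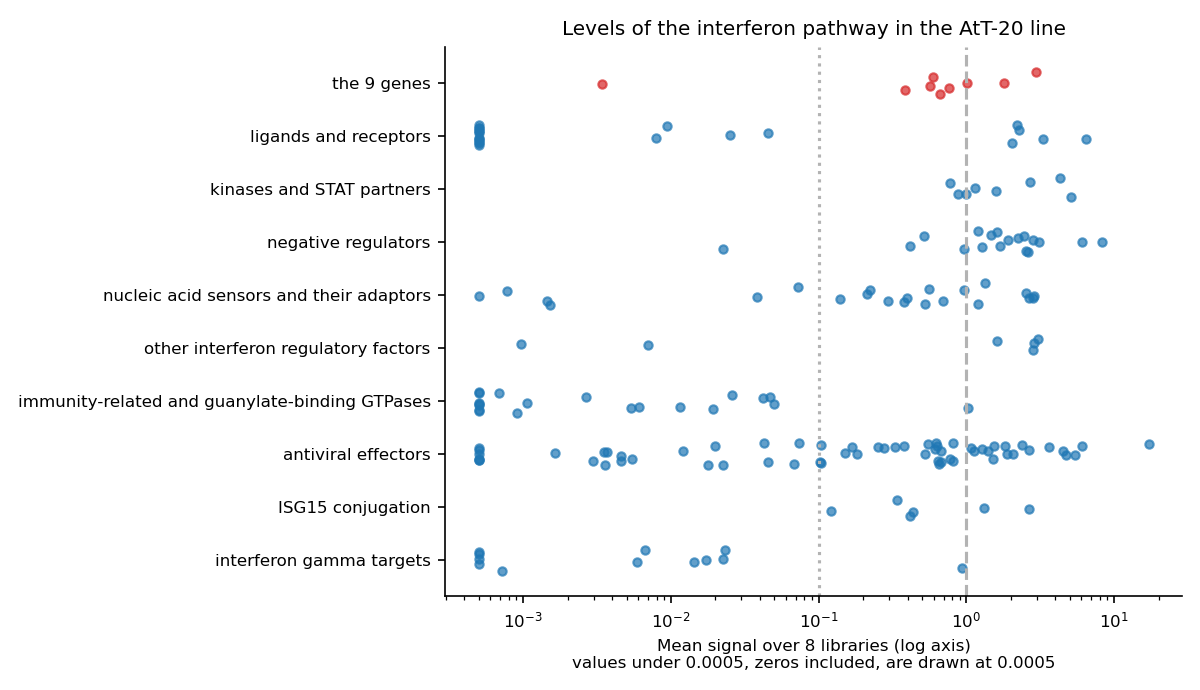
Mean signal over the 8 libraries (log axis) of the 9 genes (red) and of each wider interferon list (blue), 1 point a gene; values under 0.0005, zeros included, are drawn at 0.0005, and the lines mark 0.1 and 1. All but Ifit1 of the 9 genes lie between 0.384 and 2.97, while most GTPase and interferon gamma target genes lie below 0.1.

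Among the wider genes 48 had a mean of at least 1 and were tested by limma against 0 h. At 24 h and at 48 h 0 were called, with 3 at an unadjusted p under 0.05 at each time; among all 9606 tested genes 0.229% and 0.552% were called (higher 0.115% and 0.323%, lower 0.115% and 0.229%). At 72 h 1 was higher and 0 lower, with 11 at an unadjusted p under 0.05, and 2.01% of all tested genes were called (higher 1.27%, lower 0.739%). The shares at an unadjusted p under 0.05 were 6.25%, 6.25% and 22.9% of the list, beside 13.2%, 10.5% and 15.7% of all tested genes. Quantile normalization changed the split of all calls at 48 h from 31 higher and 22 lower to 22 and 24. With a mean of at least 0.1, 88 wider genes gave 0, 0 and 1 calls, with 8, 4 and 20 at an unadjusted p under 0.05, beside 0.162%, 0.548% and 1.57% of 17871 genes called. The 1 gene was Lgals3bp, which codes for a secreted galectin-binding glycoprotein. It had 4.19 and 4.21 at 0 h, 4.62 and 4.27 at 24 h, 4.42 and 4.65 at 48 h, and 5.55 and 5.72 at 72 h, and rose to a ratio of means of 1.34 (log2(signal + 1) 0.35, SE 0.05, limma adjusted p = 0.0224, higher in 2 of 2 libraries). Its exons overlap no other gene. The call was lost without either 0 h library (limma adjusted p = 0.167 and 0.169), either 48 h library (0.0567 and 0.0565) or either 72 h library (0.117 and 0.136). Zc3hav1, an RNA-binding antiviral factor gene chosen after its values were seen, went from 3.27 ± 0.171 to 4.24 ± 0.0378 (limma adjusted p = 0.0678). With the replicate number as a block both it and Lgals3bp were called at 72 h (limma adjusted p = 0.0499 and 0.0414).

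By list, the 17 tested antiviral effectors had a median log2(signal + 1) change of 0.03, 0.03 and 0.10 at the 3 times, and 12, 10 and 15 of them were above 0. The 14 negative regulators had medians of -0.03, 0.01 and 0.02, the 5 receptors 0.02, 0.04 and 0.08, the 5 kinase and STAT genes -0.04, -0.01 and 0.02, and the 4 other interferon regulatory factors -0.08, 0.01 and 0.00. The 6 sensors and adaptors had -0.04, 0.00 and 0.05, and the 2 conjugation genes -0.05, -0.08 and -0.04. Over all 48 the median at 72 h was 0.06, with 33 above 0, beside a median of 0.01 and 53.3% above 0 over all tested genes. At a mean of at least 0.1 the list held 88 genes, of which 21, 33 and 47 had both libraries above both 0 h libraries at 24, 48 and 72 h and 16, 12 and 9 had both below, that is 23.9%, 37.5% and 53.4% above and 18.2%, 13.6% and 10.2% below. Over all genes at that mean the shares were 21.8%, 22.7% and 25.7% above and 18.8%, 21.5% and 21.9% below. After quantile normalization 38 were above at 72 h, beside 23.9% of all genes. The wider list was also made with earlier results of these data known, so nothing is read from these counts and shares.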

How the data were processed

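The 8 deposited files each give 1 value per gene, read here as a signal: mean coverage over merged exons, normalized by the authors. The unit rests on the range of values and on the exon columns, since the scaling, counting tool and strand use were "not given in the sources used here". Per the submitters' processing notes, tools included HISAT2 2.2, SAMtools 1.12 and deepTools 3.5, with build GRCm38 (mm10). The labels' molecule field names genomic DNA, while the protocol names RNA and ribosomal depletion; values were read as RNA. Read depth is unknown, so no counting interval is given. How reads over bases of several genes were counted is not stated, so they may count for each.

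Libraries were grouped by their titles. The 9606 genes whose mean signal reached 1 were transformed as log2(signal + 1) and fitted in limma 3.58.1 (R 4.3.3) on group alone, with an intensity trend and 4 residual degrees of freedom; Benjamini-Hochberg adjustment ran over all tested genes, with a threshold of 0.05. A fit at a mean of at least 0.1 with a pseudocount of 0.1 served as an alternative. The fit was tested on simulated data. The plan allowed for counts, which these files do not hold. Exon overlaps came from the deposited exon blocks. RefSeq promoters were searched by letter and aligned with Biopython 1.88. The members and lists were chosen with earlier results of these data known. Named were all members; every listed gene called at any time, at most 10 a list; the highest gene of each list; the 3 tested genes most correlated with each member that had a mean of at least 1; and genes overlapping members. Other named genes fall outside this rule, and only some of them are marked as chosen after their values were seen. Some genes that this rule would name are not reported here. Alternatives were other pseudocounts, filters and scalings, a replicate block, no trend, only the groups compared, and each library left out.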

Additional observations from a re-analysis of the deposited data

How the results depend on the processing

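With 2 libraries a group and 4 residual degrees of freedom, small changes of weak genes cannot be seen, and calls moved with single libraries. Of the wider interferon genes, 0 were called at 24 h and 0 at 48 h, under every alternative but 1: without 24 h replicate 2, 1 gene (Ifi35) was called at 24 h, so the range over left-out libraries was 0 to 1 (unadjusted p under 0.05 for 3 genes at either time in the main setting). At 72 h 1 was called, 0 with no filter, 2 with the replicate block, and 0 to 1 over left-out libraries, where only the 24 h libraries could be left out without losing it. Over all genes 22, 53 and 193 were called; with no filter 4, 5 and 63; at 48 h 98 at the lower floor (mean 0.1, pseudocount 0.1), and 24 with the replicate block; with only the 2 groups compared 1 at 24 h and 111 at 48 h. Over left-out libraries the counts ran from 2 to 104 at 24 h, 2 to 95 at 48 h and 9 to 320 at 72 h. The cause of these differences was not tested. The replicate numbers share only a number in the labels: deviations of same-numbered libraries correlated at -0.016 to 0.402 between groups, and the block was kept as an alternative. Lgals3bp kept its sign at 72 h in all alternatives run (log2 0.33 to 0.42). A pseudocount of 0.1 gave Irgm2 0.39, 0.57 and 0.68. Counts chosen after seeing the data, of genes above both 0 h libraries at 72 h, were 8 of 8 members and 47 of 88 wider genes, 8 and 46 after trimmed mean rescaling and 8 and 38 after quantile normalization, beside 25.7%, 25.1% and 23.9% of all genes at a mean of at least 0.1.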

Other observations

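Some weak genes of the pathway outside the tested set stood higher at 72 h than at 0 h in both libraries; they were chosen after their values were seen. Cd274, which codes for the immune checkpoint ligand PD-L1, was at 0.814 and 0.752 before tamoxifen and at 1.26 and 1.27 after 72 h (limma at the lower floor, mean 0.1 and pseudocount 0.1, log2 0.63, adjusted p = 0.0970). Uba7, the activating enzyme for Isg15, was at 0.0667 and 0.0789 before and at 0.180 and 0.194 after 72 h (log2 0.73 in the same limma fit, adjusted p = 0.0936). Neither passed the threshold. Of their exonic bases, 14.1% of Cd274 lie inside exons of the antisense gene Gm36043 and 3.48% of Uba7 inside exons of Gm20661.

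In a further pair of genes, also chosen after their values were seen, 72 h replicate 2 stood alone. Trim30a was at 1.21 there and at 0.147 to 0.240 in the other 7 libraries, and the DNA sensor gene Cgas was at 0.603 there and at 0.143 to 0.195 in the others; 4.87% of its exonic bases lie inside exons of the antisense gene Gm8093. Irf9 was high in the other 72 h library, replicate 1.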
